A study of Mus musculus with 8 samples.

Results

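The 8 genes described here encode the kainate receptor subunits GluK1 to GluK5 (Grik1, Grik2, Grik3, Grik4 and Grik5), the delta receptor subunit GluD1 (Grid1) and the auxiliary proteins Neto1 and Neto2. They were taken by symbol, and all 8 had a row among the 55341 gene rows of the count tables. RNA came from nuclei of GABAergic neurons, the inhibitory neurons of the brain, sorted from single mouse cortices by a nuclear fluorescent protein whose expression depended on Cre recombinase. Mice 9 to 12 formed the PTU group (n = 4), which was hypothyroid because the mothers received propylthiouracil, an inhibitor of thyroid hormone synthesis, during pregnancy. The PTU+TH group (mice 13 to 16, n = 4) had the same prenatal exposure and also got thyroid hormone by intraperitoneal injection 24 h before brain collection. All mice were juvenile and carried the same reporter system, and no euthyroid group was analysed here. The Cre driver, strain, exact age, sex and litter are not given in the sources used here. In bulk RNA of this kind, fewer nuclei of a class and less RNA per nucleus cannot be told apart.

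Kainate receptors are glutamate-gated cation channels built from 4 subunits. GluK1, GluK2 and GluK3 can form channels alone, whereas GluK4 and GluK5 bind glutamate tightly but need a partner from the first set. Neto1 and Neto2 are single-pass membrane proteins that bind the channel and slow its closing. GluD1 resembles the other ionotropic subunits in sequence but works mainly as a synaptic organiser that links presynaptic neurexins through cerebellins. In the cortex, kainate receptors act on interneurons both at the cell body and at the terminals that release GABA.

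None of the 8 genes passed the test between PTU+TH and PTU. Neto2 had the smallest p, with a PTU+TH level 1.19 times that of PTU, and Neto1 pointed the other way, with a log2 fold change (PTU+TH over PTU throughout) of -0.27. The 5 kainate subunits and Grid1 stood at 0.880 to 1.09 times the PTU level, and their groups overlapped. In the fit across all 17355 genes tested (edgeR quasi-likelihood, Benjamini-Hochberg over all genes), 368 genes (2.12%) were called at an adjusted p under 0.05, so a count of 0 of 8 is near what the background gives. At an unadjusted p under 0.05 there was 1 member, Neto2, against 12.8% of all genes, and DESeq2 and limma voom also called 0 members. The median log2 fold change was -0.04 over the 8 genes and -0.01 over all genes tested.

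Library totals lay between 21.8 M and 29.1 M counts, and the members held between 1579 and 53617 counts per library. At the lowest of these the counting error is 2.5%, far under the differences between mice. Hr, a direct thyroid hormone target, was used to check the labels and stood at 1.05 to 2.22 CPM (counts-per-million, with library sizes scaled by TMM) in PTU and at 24.6 to 28.5 CPM in PTU+TH, and 3 of 3 such target genes listed were called higher. The GABAergic markers Gad1 and Gad2 lay between 389 and 546 CPM in all libraries. Of the 8 GABAergic genes listed, 6 were tested and 0 called, and Dlx1 and Dlx6 were listed at 0. The excitatory marker Slc17a7 ranged from 15.8 to 57.9 CPM, and the excitatory list summed to 129 to 245 CPM in PTU and 138 to 277 CPM in PTU+TH, with 0 of 11 genes called. Summed levels of non-neuronal lists were 139 to 389 CPM for astrocytes, 94.5 to 194 CPM for oligodendrocytes, 44.8 to 79.6 CPM for their precursors, 11.2 to 31.3 CPM for microglia and 33.6 to 152 CPM for endothelium, each with 0 genes called and with Gfap and P2ry12 listed at 0. Nothing is read from the zeros of Dlx1, Dlx6, Gfap and P2ry12, since 0% of each gene's body is free of other genes. Among class markers of GABAergic neurons, 4 of 10 PV genes and 1 of 8 LAMP5 genes were called higher, and 1 of 8 SST and 1 of 8 VIP genes lower, against 2.12% of all genes tested. The genes that name these classes, Pvalb, Lamp5, Sst and Vip, were not called. By direction alone, 7 PV genes rose and 3 fell, and 3 LAMP5 genes rose and 5 fell. In the SST list 3 rose and 5 fell, and in the VIP list 1 rose and 7 fell. The part of these classes in the levels of the 8 genes was not tested. Mice 15 and 16, both PTU+TH, had 0 counts of 4 Y-linked genes, while the other 6 libraries had 7960 to 11548.

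Grik1, on chromosome 16 (87895900 to 88290265, GRCm38), encodes GluK1, a channel-forming subunit typical of cortical interneurons, and had the highest level of the 8 genes. It stood at 1454, 1724, 2518 and 2345 CPM in PTU mice 9 to 12 and at 1669, 1833, 1878 and 2324 CPM in PTU+TH mice 13 to 16. All PTU+TH values lay inside the PTU range, which itself spanned a factor of 1.73. The group means were 2010 ± 504 and 1926 ± 280 CPM (SD, n = 4 each), and the log2 fold change was -0.06 (SE 0.21, edgeR adjusted p = 0.96).

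Grik2, on chromosome 10 (49094833 to 49788766), encodes GluK2, the other main channel-forming subunit. It stood at 927.9, 1043, 1438 and 1543 CPM in PTU, compared with 1088, 1176, 1097 and 1284 CPM in PTU+TH. The groups again overlapped fully, with means of 1238 ± 299 and 1161 ± 91.1 CPM (SD, n = 4 each), and a log2 fold change of -0.09 (SE 0.18, edgeR adjusted p = 0.919). PTU mice 9 and 10 were the lowest of all 8 libraries and mice 11 and 12 the highest, both of the same group. Grik3 (chromosome 4, 125490700 to 125714173), which encodes the low-affinity subunit GluK3, also had mouse 9 lowest and mice 11 and 12 highest. It stood at 220.6, 264.8, 421.6 and 384.8 CPM in PTU, compared with 228.4, 287.5, 292.5 and 328.6 CPM in PTU+TH (edgeR adjusted p = 0.796 for a log2 fold change of -0.18, SE 0.19).

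The channel-forming subunits share a stretch of the pore loop that holds a codon known as the Q/R site. In GluK1 and GluK2 RNA this glutamine codon can be edited to read as arginine by ADAR2, the product of Adarb1, which lowers calcium permeability, while GluK3 RNA is not known for this edit. The stretches are shown because Adarb1 was called in these libraries. Each is 87 bases of the spliced coding strand from GENCODE M21 transcripts (GRCm38), 5′ to 3′, with the Q/R codon in capitals.
Grik1: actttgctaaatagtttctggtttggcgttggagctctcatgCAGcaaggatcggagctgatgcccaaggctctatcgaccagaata
Grik2: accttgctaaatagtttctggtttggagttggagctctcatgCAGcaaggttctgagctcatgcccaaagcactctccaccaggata
Grik3: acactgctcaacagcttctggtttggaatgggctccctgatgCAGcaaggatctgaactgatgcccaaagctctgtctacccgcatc
The codon is number 636 of Grik1 (exon 13 of 18, chr16:87940542-87940544, minus strand), 621 of Grik2 (exon 13 of 17, chr10:49244329-49244331, minus strand) and 623 of Grik3 (exon 12 of 16, chr4:125691207-125691209, plus strand), counted from the start codon. Each stretch crosses into the next exon. Grik1 and Grik2 differed at 10 of the 87 bases, and each differed from Grik3 at 20. All 3 hold the unedited codon in the genome. The same codon stands in the matching stretch of Grik4 (codon 606), Grik5 (codon 605) and Gria2, an AMPA receptor gene (codon 607). Those stretches are not shown. Editing itself leaves no trace in a count per gene and was not measured here.

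The high-affinity subunits did not pass either. Grik4, on chromosome 9 (42518135 to 42944493), encodes GluK4 and had the lowest level of the 8 genes. It stood at 57.5, 70.4, 94.4 and 70.5 CPM in PTU, compared with 85.9, 63.8, 74.9 and 95.4 CPM in PTU+TH, with overlapping groups (edgeR adjusted p = 0.832 for a log2 fold change of 0.13, SE 0.15). Grik5, on chromosome 7 (25009849 to 25072346), encodes GluK5, the usual partner of GluK2 in the brain. It stood at 201.1, 238.7, 301.3 and 272.3 CPM in PTU, compared with 252.1, 261.8, 236.0 and 253.7 CPM in PTU+TH. The PTU+TH values sat in the middle of the PTU range, and the means of 253 ± 43.2 and 251 ± 10.8 CPM (SD, n = 4 each) were nearly equal (edgeR adjusted p = 0.988 for a log2 fold change of -0.01, SE 0.12). Its 95% interval was -0.28 to 0.25.

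Grid1, on chromosome 14 (34820108 to 35583379), has the longest gene body of the 8. It stood at 209.0, 270.1, 421.0 and 381.3 CPM in PTU, the widest spread of any member (a factor of 2.01), and at 290.8, 319.3, 321.5 and 408.5 CPM in PTU+TH. The groups overlapped, and the log2 fold change was 0.07 (SE 0.20, edgeR adjusted p = 0.954).

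Neto1, on chromosome 18 (86394952 to 86506718), stood at 408.5, 430.6, 633.0 and 584.8 CPM in PTU, compared with 377.3, 426.3, 429.9 and 472.3 CPM in PTU+TH. Mice 11 and 12 of PTU lay above every PTU+TH mouse, but mice 9 and 10 lay among them. The means were 514 ± 111 and 427 ± 38.9 CPM (SD, n = 4 each), with a log2 fold change of -0.27 (SE 0.16, edgeR adjusted p = 0.537).

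Neto2, on chromosome 8 (85636588 to 85700924), was the only member whose groups did not overlap, as held for 1512 (8.71%) of all genes tested. It stood at 217.8, 208.9, 228.9 and 231.5 CPM in PTU, compared with 261.5, 287.8, 244.2 and 263.6 CPM in PTU+TH. The lowest PTU+TH mouse, 15, was thus above the highest PTU mouse, 12. The means were 222 ± 10.4 and 264 ± 17.9 CPM (SD, n = 4 each), with a log2 fold change of 0.25 (SE 0.10, 95% interval 0.05 to 0.46, unadjusted p = 0.0202). After adjustment over all genes this did not pass (edgeR adjusted p = 0.255).

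**Figure D1:**
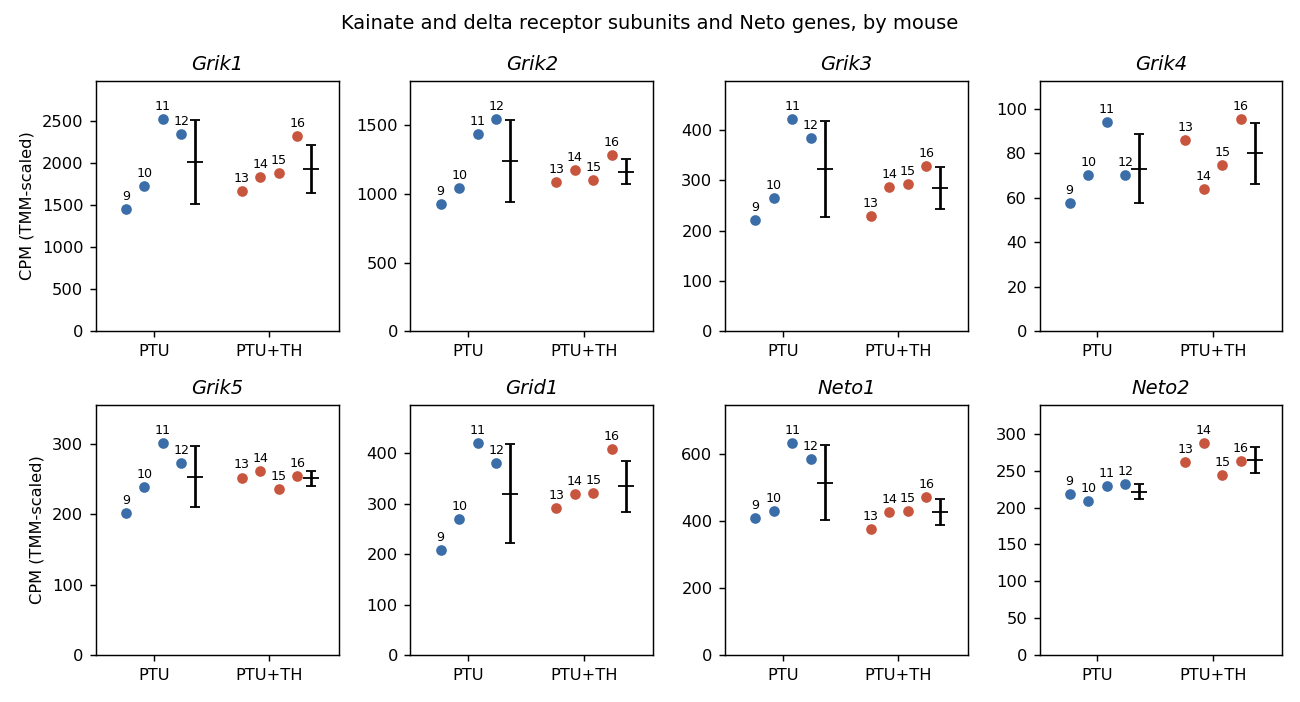
CPM of each of the 8 genes (y axes from 0) in the 4 PTU and 4 PTU+TH libraries, 1 point per mouse with its number, and the group mean ± SD as a black bar. The PTU points of 7 genes are widely spread with mouse 9 lowest, and the groups separate for Neto2 alone, with PTU at 208.9 to 231.5 and PTU+TH at 244.2 to 287.8.

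Because Neto1 and Neto2 pointed in opposite directions, their ratio was set out per mouse as a description, on CPM per kb of gene body. Neto1 to Neto2 was 1.08, 1.19, 1.59 and 1.45 in PTU and 0.831, 0.853, 1.01 and 1.03 in PTU+TH. Every PTU mouse was above every PTU+TH mouse. The choice of length sets the size of the ratio, and so which of the genes has the higher level, but not the order of the mice. The ratio was formed after both genes had been seen and carries no test. By comparison, Grik1 to Grik2 was 2.86 ± 0.18 in PTU and 2.91 ± 0.23 in PTU+TH (SD, n = 4 each), with overlapping values.

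Levels can be compared between genes only per length, since the tables appear to count reads over the whole gene body, introns included. Of 683 protein-coding genes that lie inside other genes without any exon touching another gene's exon, 683 (100%) were listed at 0, against 2526 of 11727 (21.5%) that share no base with another gene. A counter that assigns reads to whole gene bodies and drops ambiguous ones gives such zeros. On CPM per kb of gene body, averaged over the 8 libraries, the order was Grik1 at 4.99 ± 0.96, Neto1 at 4.21 ± 0.81, Grik5 at 4.03 ± 0.47, Neto2 at 3.78 ± 0.41, Grik2 at 1.73 ± 0.30, Grik3 at 1.36 ± 0.32, Grid1 at 0.429 ± 0.095 and Grik4 at 0.180 ± 0.033 (SD, n = 8). The first 4 overlapped in range, and the order of Grik5 and Neto2 held in only 3 of 8 libraries and that of Neto1 and Grik5 in 6 of 8. The order of these 3 genes differed between the groups. PTU means were 4.60 for Neto1, 4.05 for Grik5 and 3.45 for Neto2. PTU+TH means were 3.82, 4.01 and 4.11, the reverse order. Grik1 was above Neto1, and Grik2 above Grik3, in 8 of 8 libraries although their ranges overlapped. Neto2 and Grik2, Grik3 and Grid1, and Grid1 and Grik4 did not overlap. This order depends on the length used. On mean CPM per kb of exon Grik1 led at 293 and Grik4 was last at 12.8, but Grik2 (90.6) stood above Neto2 (39.7), and Grid1 (55.0) above Grik3 (33.8).

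**Figure D2:**
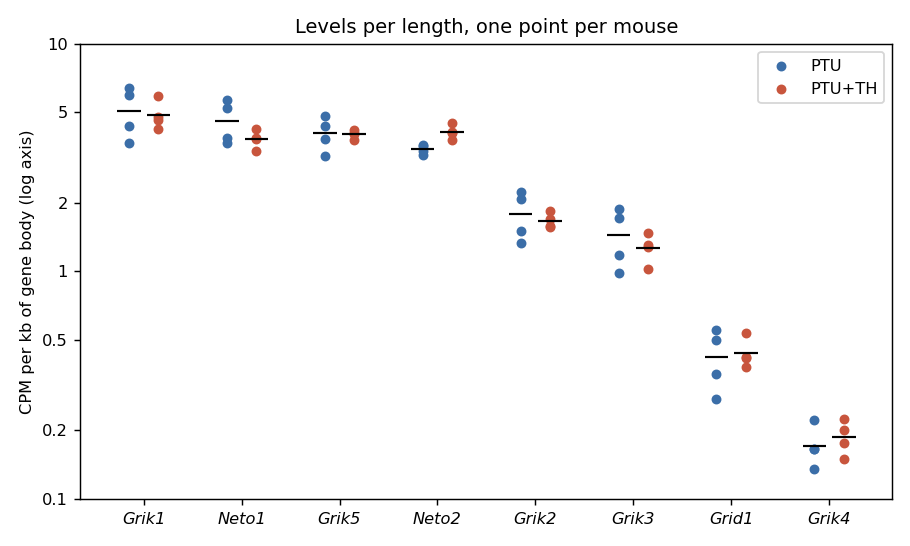
CPM per kb of gene body (log axis) for the 8 genes in order of their mean, 1 point per mouse, PTU in blue and PTU+TH in red, with black lines for group means. Levels run from 3.69 to 6.38 for Grik1 down to 0.135 to 0.224 for Grik4, and within each gene the groups overlap except for Neto2.

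On the same scale Grik1 made up 40.4% of the summed level of the 5 kainate subunits, Grik5 33.1%, Grik2 14.1%, Grik3 11.0% and Grik4 1.47%. Grik1 was at 40.4% ± 1.1 in PTU and 40.5% ± 2.4 in PTU+TH, and Grik5 at 32.6% ± 2.2 and 33.5% ± 2.8 (SD, n = 4 each). Grik2 was at 14.2% ± 0.89 and 13.9% ± 0.29, Grik3 at 11.4% ± 0.86 and 10.5% ± 0.89, and Grik4 at 1.38% ± 0.16 and 1.56% ± 0.24, with overlapping values in every case; none of the 5 differences was tested. The shares depend on the length chosen. Per kb of exon Grik1 was at 61.0%, Grik2 at 19.0% and Grik5 at 10.3%, so Grik2 and Grik5 changed places while Grik1 stayed first and Grik4 last.

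The members were then described by gene body length and by their variation between mice. Of the 8, 6 have bodies of at least 100 kb, from 111.8 kb for Neto1 to 763.3 kb for Grid1, against 16.8% of the 13960 protein-coding genes tested, and only Grik5 (62.5 kb) and Neto2 (64.3 kb) are shorter. Between 97.5% and 100% of each body is free of other annotated genes. Within PTU, mouse 9 was the lowest library for 7 of the 8 genes and mouse 11 the highest for 6, and mouse 16 was the highest PTU+TH library for 6. The exception to the first was Neto2, whose coefficient of variation in PTU was 4.7%, against 17.1% to 30.6% in the other 7. Grik5 is as short as Neto2 but varied more, at 17.1%, with mouse 9 lowest and mouse 11 highest, although genes of 30 to 100 kb had medians of only -0.05 and 0.03 in these mice, on the log2 ratio to the mean of the 8 libraries.

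The medians of long genes put the PTU mice in a like order. For the 348 tested protein-coding genes of 400 kb or more, the median log2 ratio to the mean of the 8 libraries was -0.46, -0.23, 0.35 and 0.21 in PTU mice 9 to 12 and -0.11, -0.11, 0.08 and 0.28 in PTU+TH mice 13 to 16. For the 2919 genes under 10 kb the order within PTU was the reverse, with mice 9 and 10 above and mice 11 and 12 below the mean, which did not hold for all PTU+TH mice, since mouse 15 was above it in both sets. The values were 0.19, 0.05, -0.14 and -0.12 in PTU and 0.07, 0.02, 0.07 and -0.07 in PTU+TH. The long genes thus differed more among the 4 PTU mice than between the groups, whose median log2 fold change stayed at 0.03 in the longest and 0.01 in the shortest set. Slc17a7 stood at 50.7, 51.4, 22.8 and 15.8 CPM in PTU mice 9 to 12 and at 44.0, 23.9, 57.9 and 28.0 CPM in mice 13 to 16, so it was higher in the PTU mice with low long genes, while mouse 15 had the highest Slc17a7 and long genes near the mean. What sets the order of the mice was not tested.

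**Figure D3:**
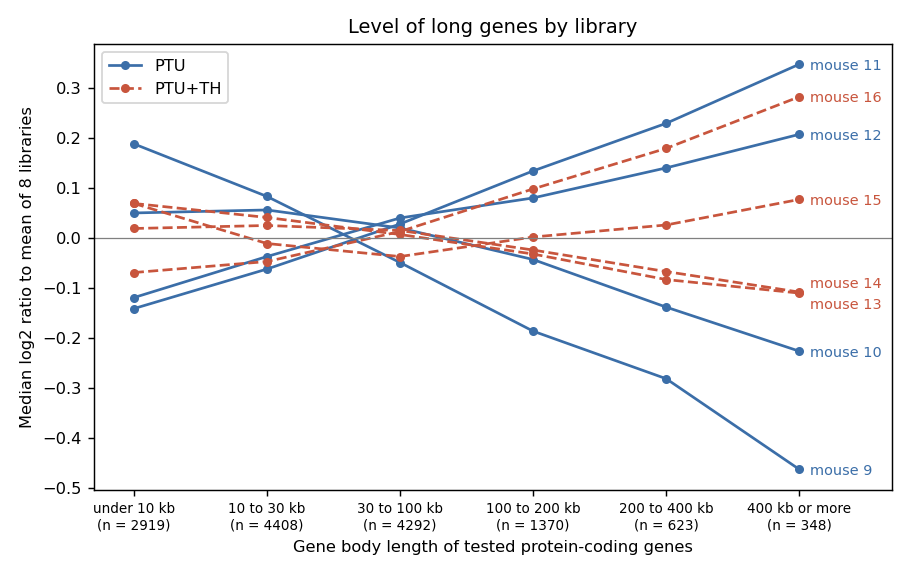
Median log2 ratio to the mean of the 8 libraries (y axis) for tested protein-coding genes in 6 sets of gene body length (x axis, with the number of genes), 1 line per mouse, PTU solid blue and PTU+TH dashed red. The lines fan out with length, from -0.46 for mouse 9 to 0.35 for mouse 11 at 400 kb or more, both of them PTU mice.

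The fit was therefore repeated with an offset per library that removes the smooth trend of level on gene body length. All 8 standard errors became smaller, by a factor of 3.08 for Grik1, 2.77 for Grid1 and 2.24 for Grik2, down to 1.39 for Grik5 and 1.38 for Neto2. The Grik1 values became 1872, 1945, 2070 and 2101 in PTU and 1780, 1958, 1801 and 1990 in PTU+TH, in length-adjusted CPM. The PTU mice were then within a narrow band, and the log2 fold change was -0.09 (SE 0.07, 95% interval -0.23 to 0.06). For Grid1 it was 0.04 (95% interval -0.12 to 0.19) and for Grik2 -0.13 (-0.30 to 0.05). Without the offset the Grik1 interval had run from -0.51 to 0.39. Grik5 still spanned 212.4 to 291.2 length-adjusted CPM in PTU, with mouse 9 lowest and mouse 11 highest (log2 fold change 0.00, 95% interval -0.19 to 0.19).

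With the offset 699 of all genes (4.03%) were called, and again 0 of the 8 members. Neto2 was close to the threshold, at 230.7, 209.5, 220.9 and 224.0 length-adjusted CPM in PTU and 264.0, 288.9, 248.7 and 257.5 in PTU+TH (edgeR adjusted p = 0.0535 for a log2 fold change of 0.26, SE 0.07). Neto1 stood at 458.5, 444.9, 584.8 and 555.0 in PTU and 386.6, 435.6, 429.9 and 443.8 in PTU+TH (edgeR adjusted p = 0.138 for a log2 fold change of -0.27, SE 0.09). Both genes now separated the groups, Neto1 with mouse 10 of PTU only just above mouse 16, which makes 2 of 8 members against 10.7% of all genes. The ratio of Neto1 to Neto2 on these values was 1.14 to 1.52 in PTU and 0.843 to 0.995 in PTU+TH. Neto2 passed in 2 of the fits added to this one, at an edgeR adjusted p of 0.0469 without PTU mouse 9 and 0.047 with a term for the presence of Y-linked counts.

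**Figure D4:**
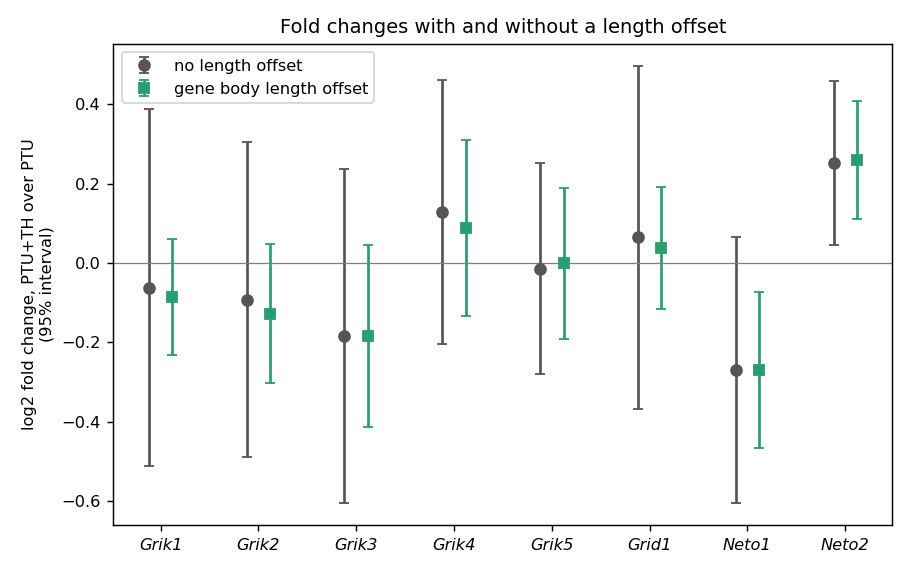
Log2 fold change of PTU+TH over PTU (y axis) for the 8 genes, with 95% intervals per gene not adjusted for the number of genes, without (grey circles) and with (green squares) the gene body length offset. The intervals of Grik1, Grik2 and Grid1 shrink most, and with the offset those of Neto1 (-0.47 to -0.07) and Neto2 (0.11 to 0.41) lie on opposite sides of 0.

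The members can also be read beside genes of like length. Over the protein-coding genes whose body is within a factor of 1.5 of the member's, the median log2 fold change lay between -0.02 and 0.03 for each of the 8. Neto2 was 0.27 above that of its 2706 genes, and Neto1 differed from that of its 1947 by -0.27, while Grik5 was 0.01 above and Grid1 0.04 above. For Grik3 the difference from its 950 genes was -0.20. These are descriptions with no test.

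Of 24 genes of the same complexes, 23 had a row and 21 were tested. The list includes ligands, scaffolds and editing enzymes. Of the 21, 1 gene, Adarb1, was called higher and 1 lower, against 2.12% of all genes tested in either direction. The median log2 fold change over the 21 was -0.04. Adarb1 (chromosome 10, 77290726 to 77418270), which encodes the editing enzyme ADAR2, stood at 138.2, 138.1, 167.5 and 170.6 CPM in PTU, compared with 221.9, 246.6, 225.3 and 263.7 CPM in PTU+TH. All 4 PTU+TH mice were above all 4 PTU mice, and it rose by a factor of 1.56 (edgeR adjusted p = 0.00689 for a log2 fold change of 0.64, SE 0.11). In the 6 libraries with Y-linked counts the log2 fold change was 0.61, but the adjusted p was 0.116, and it was 0.0668 with the presence of Y-linked counts as a term. With the length offset it was 0.000171.

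Adar, which encodes the related editing enzyme ADAR1, was at 87.6 ± 12.2 and 85.2 ± 5.97 CPM (SD, n = 4 each; log2 fold change -0.04).

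**Figure D5:**
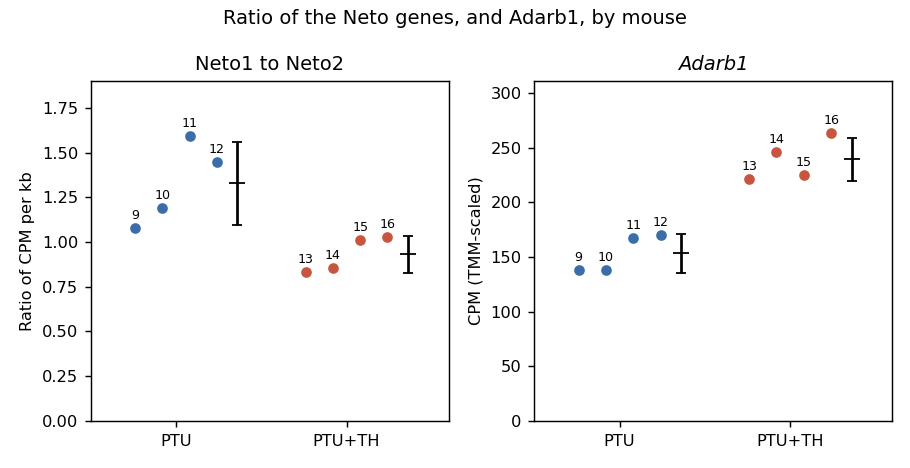
Ratio of Neto1 to Neto2 in CPM per kb of gene body (left) and CPM of Adarb1 (right), y axes from 0, 1 point per mouse with its number and the group mean ± SD as a black bar. The ratio runs from 1.08 to 1.59 in PTU and from 0.831 to 1.03 in PTU+TH, and Adarb1 is higher in every PTU+TH mouse than in any PTU mouse.

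Among the ligands, Cbln4, a secreted cerebellin that binds neurexins, stood at 14.8, 7.64, 11.6 and 10.1 CPM in PTU, compared with 6.11, 7.94, 5.63 and 6.81 CPM in PTU+TH. Mouse 10 of PTU overlapped with PTU+TH, and the gene did not pass (edgeR adjusted p = 0.0945 for a log2 fold change of -0.73, SE 0.20), though it did with DESeq2 (adjusted p = 0.0229). Cbln3 and the scaffold gene Dlg1 had unadjusted p-values of 0.0257 and 0.0321 and did not pass after adjustment (edgeR adjusted p = 0.287 and 0.32). The neurexin genes Nrxn2 and Nrxn3, which encode presynaptic adhesion proteins, had log2 fold changes of -0.05 and 0.09. Cbln1 and C1ql1 were listed at 0, and 0% of their bodies is free of other genes, so nothing is read from this.

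The AMPA and NMDA receptor subunits, the other ionotropic families, had 0 of 11 genes called, against 2.12% of all genes tested. At an unadjusted edgeR p under 0.05 there was 1 of the 11, against 12.8% of all genes.

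Over the 8 libraries, Ogdh and Dlst were among the 3 genes most like Neto2 in their pattern, with a root mean square difference in mean-centred log2 CPM of 0.03 and 0.05 among 9355 protein-coding genes of at least 10 CPM. Ogdh went from 239 ± 10.3 to 282 ± 23.8 CPM and Dlst from 167 ± 2.35 to 193 ± 9.42 CPM (SD, n = 4 each). Both were picked for likeness to Neto2 in these same libraries, so a rise like that of Neto2 follows from the choice. Neither passed the test (edgeR adjusted p = 0.33 and 0.293).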

How the data were processed

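The authors deposited whole-number counts for each gene symbol, unnormalised, with 1 file per mouse. The submitters' processing notes name Bowtie2 2.5.3 and the builds mm10 and GRCm38. The counting program, the annotation and the use of strand are not given in the sources used here. Per the labels' protocols, cDNA was made with SMART-Seq v4, libraries with Nextera XT, and reads were single-end. All 55341 symbols matched GENCODE M21 (GRCm38), which gave positions and lengths. Per pair of libraries of a group, the chi-square per degree of freedom was 8.38 to 72.6, so none was a copy.

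Counts were tested with edgeR 4.0.16 (R 4.3.3): filterByExpr, TMM scaling, robust quasi-likelihood fit on group, two-sided, Benjamini-Hochberg over the 17355 genes kept, called under 0.05. CPM were computed here from the deposited counts. Intervals are 95%, per gene. The length offset is a lowess curve (span 0.3) of each library's log2 ratio to the mean library on log10 gene body length. Levels per kb divide CPM by gene body length. Alternatives used DESeq2 1.42.0, limma 3.58.1, other scalings, filters, covariates and fits without each library. The scripts were tested on simulated data. Members and lists were chosen with earlier results of these data known. Genes named are the 8 members, partner genes called, the 3 partners of smallest p, and the 3 genes nearest in pattern to Neto2, the member of smallest p. Some genes this rule names are not reported here. Cbln3, Dlg1, Adar, Nrxn2 and Nrxn3 were named after their values were seen. Labels do not state litters, so p-values measure the spread between these mice.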

Additional observations from a re-analysis of the deposited data

How the results depend on the processing

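The 8 members were compared under 20 other settings and 10 added after seeing the data, which join the length offset to fits without each library, to the Y-linked term and to a smoother span of 0.6. No paired analysis was possible because PTU and PTU+TH mice share no number. The number of members called was 0 in all 20 and in 8 of the 10. It was 1 (Neto2) with the offset and the Y-linked term (adjusted p 0.047) and ranged from 0 to 1 across fits without a library, where Neto2 ran from 0.0469 to 0.49. Neto1, Neto2, Grik3 and Grik4 kept their direction in all 30.

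The direction of 4 small differences turned. Grik5 turned with the Y-linked term (0.992), the excitatory term (0.985), in the 6 libraries with Y-linked counts (0.997) and with offset and Y-linked term (0.947). Grid1 turned with the Y-linked term (0.976) and in those 6 libraries (0.986). Without the offset, leaving out mouse 11, 12 or 13 turned Grik1, mouse 12 Grik2, mouse 11, 12 or 15 Grik5, and mouse 9, 10 or 16 Grid1. With it, no such fit turned Grik1 or Grik2, mouse 9 turned Grid1, and mouse 11, 12, 15 or 16 Grik5. Without single libraries the adjusted p ran from 0.422 to 0.997 for Grik1, 0.292 to 0.992 for Grik2, 0.669 to 0.996 for Grik5 and 0.729 to 0.999 for Grid1. The cause was not tested.

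Against 368 genes, the count over all genes was 748 with DESeq2, 699 with the length offset, 701 at the wider span, 129 with the Y-linked term, 640 with the excitatory term and 58 in the 6 libraries, which hold fewer mice; without single libraries it was 182 (mouse 15) to 797 (mouse 9, with the offset), and at most 238 for each of mice 12 to 16 without the offset. Partner genes called numbered 1 with the Y-linked term and 0 in the 6 libraries, against 2. They numbered 3 with DESeq2, with the length offset and at the wider span. The count was also 3 without mouse 10, with or without the offset, and without mouse 9 with the offset. Scaling moved the median log2 fold change of all genes to -0.03 at most.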
